A study of Homo sapiens with 183 samples.

Results

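RH30 is an established human alveolar rhabdomyosarcoma line, and 10 genes of the skeletal muscle lineage were followed in it after inhibition of the ATPases RUVBL1 and RUVBL2. The genes were PAX3, FOXO1, MYOD1, MYOG, DES, MYH3, CHRNA1, FGFR4, CDH15 and MEF2C, which are 10 of the 19875 gene names in the table. They and the gene lists below were chosen by name, with earlier results of these data known. Their ranks, counts and medians are therefore not independent of that choice. The table holds 32 of the 183 libraries of the series. Parental RH30 cells, with no engineered allele, received CB6644 (4 libraries) or the solvent DMSO (4 libraries) for 24 h, and the same treatments were given to the parental lines T84 (colorectal cancer), A375 (melanoma) and H1048 (small cell lung cancer of the P subtype, described as tuft cell-like), with 4 libraries per group. CB6644, or CB-6644, is an allosteric inhibitor of the RUVBL1/2 ATPase activity. The labels do not say whether replicates came from separate cultures, so p-values measure the spread between these libraries, which may be technical.

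Skeletal muscle identity is set by a small group of transcription factors. PAX3 marks muscle progenitors, MYOD1 commits cells to the lineage, and MYOG (myogenin) is switched on later, when myoblasts leave the cell cycle and differentiate. MYOD1 and MYOG bind short DNA elements called E-boxes together with E proteins such as TCF3, and MEF2 factors such as MEF2C act beside them on the same genes. Alveolar rhabdomyosarcoma cells express these factors but keep dividing, and RH30 is known to carry a fusion of PAX3 to FOXO1. Values given per gene cannot separate reads of the fusion from reads of intact PAX3 and FOXO1.

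The sequences before the starts of MYOG and CHRNA1, which respectively had the largest and smallest falls of the 8 myogenic genes that fell, are shown as the places where MYOD1-type factors would be sought. Each is the 250 bases before the RefSeq start on build GRCh38.p14, written 5′ to 3′ on the gene's own (minus) strand, with E-boxes of the form CANNTG in capitals. MYOG covers chr1:203086013-203086262 and CHRNA1 covers chr2:174764473-174764722, whose start lies inside the longer span that GENCODE gives this gene.
MYOG: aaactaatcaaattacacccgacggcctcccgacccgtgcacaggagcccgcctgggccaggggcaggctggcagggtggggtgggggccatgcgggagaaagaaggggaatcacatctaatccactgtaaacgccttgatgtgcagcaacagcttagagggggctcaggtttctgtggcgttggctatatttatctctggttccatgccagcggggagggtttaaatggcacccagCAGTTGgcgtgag
CHRNA1: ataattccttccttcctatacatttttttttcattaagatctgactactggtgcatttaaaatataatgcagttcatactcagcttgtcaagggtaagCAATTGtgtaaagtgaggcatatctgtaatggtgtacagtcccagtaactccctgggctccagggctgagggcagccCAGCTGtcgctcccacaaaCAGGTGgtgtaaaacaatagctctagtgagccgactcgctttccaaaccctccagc
The MYOG stretch held 1 E-box and that of CHRNA1 held 3, of which 1 had the letters CAGCTG. Over windows of 300 bases (250 before and 50 after the start, both strands searched), at least 1 CANNTG occurred in 68.7% of 35116 RefSeq promoter windows, CAGCTG in 17.9% and the MEF2 consensus in 2.99%. Windows were at hand for 6 of the 10 genes (13 windows) and none were for MYOD1, DES, MYH3 and CDH15. The PAX3 and FOXO1 windows held neither CANNTG nor the MEF2 consensus, and a MEF2 consensus was found in 1 of 7 MEF2C windows. The MYOG, CHRNA1 and FGFR4 windows held no MEF2 consensus either. CANNTG matches numbered 1 and 3 in the FGFR4 windows and 0 to 2 in those of MEF2C. CANNTG contains CAGCTG, so these matches overlap, and a match of letters is not a measured binding site.

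Apart from PAX3 and MYH3, the myogenic genes were higher in every RH30 library than in any library of the other 3 lines. Levels are in TPM (transcripts as a share of a fixed library total, corrected for transcript length). PAX3 in A375 CB6644 (15.3 to 16.6 TPM) overlapped with RH30 DMSO (15.5 to 17.3 TPM). MYH3 in RH30 overlapped with A375 in DMSO (2.05 to 2.37 against 1.74 to 2.12 TPM). In CB6644 MYH3 was lower in RH30 (0.572 to 1.03 TPM) than in A375 (3.32 to 3.70 TPM). In DMSO, the order of mean levels was MYOD1 at 737 TPM, DES at 617, CHRNA1 at 371, FGFR4 at 342, CDH15 at 171, MYOG at 83.9, MEF2C at 17.7, PAX3 at 16.4, FOXO1 at 10.9 and MYH3 at 2.22. Of the neighbours in this order, CHRNA1 and FGFR4 overlapped between libraries, as did MEF2C and PAX3. Only 182 genes of the table had a higher mean than MYOD1, whereas 10960 stood above MYH3. The regulators MYOD1 and MYOG were thus expressed in RH30, and the embryonic myosin gene MYH3 was the lowest of the 10 genes. The genes were chosen as muscle genes, so these levels are a description and not a test of the line's identity. Markers of other lineages were low in RH30. The summed level of 7 epithelial markers ran from 3.83 to 11.2 TPM in DMSO and from 4.71 to 10.3 TPM in CB6644, with EPCAM between 0 and 0.675 TPM over both groups. The 7 colorectal markers summed to 6.48 to 7.86 TPM in DMSO and 2.39 to 3.42 in CB6644, and CDX2 was at most 0.163 TPM. The 6 melanocyte markers summed to 5.25 to 7.01 TPM in DMSO and 7.41 to 8.55 in CB6644. In A375 they summed to 251 to 258 TPM in DMSO and 183 to 194 in CB6644. Most of the A375 sum was SOX10 (mean 235 TPM in DMSO), which was at most 0.154 TPM in RH30. PMEL and DCT had higher means in RH30 DMSO than in A375 DMSO. TYR was 0 in every RH30 library but also in every A375 library, so it does not separate these lines. The 6 tuft cell markers summed to 13.7 to 15.1 TPM in DMSO and 7.46 to 7.89 in CB6644, nearly all of it SOX9, and POU2F3 was at most 0.163 TPM.

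**Figure D1:**
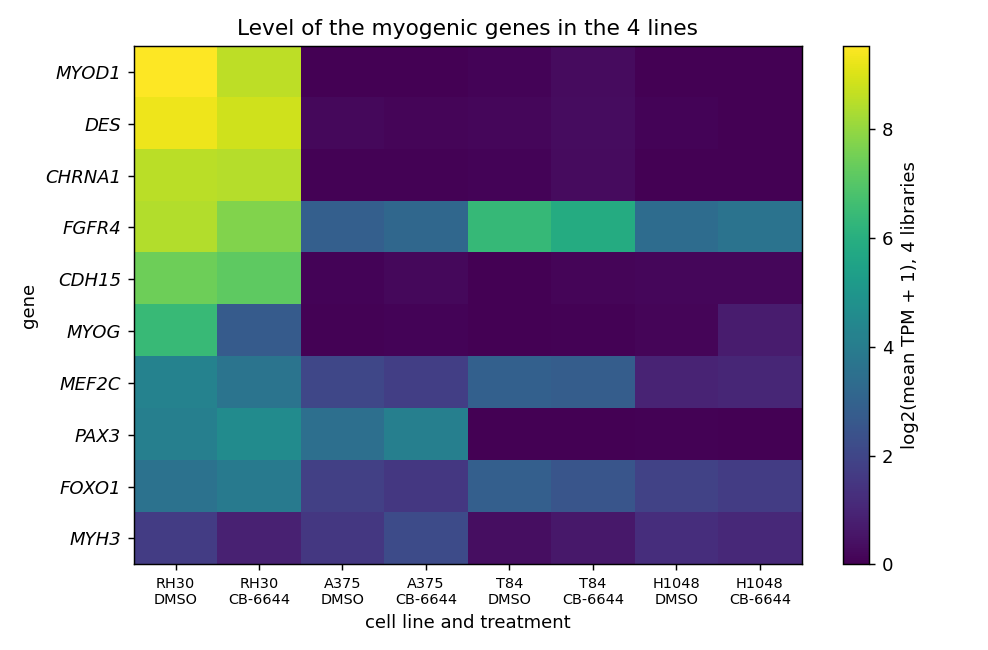
Mean level of the 10 myogenic genes (rows) in each cell line and treatment (columns), as log2(mean TPM + 1) of 4 libraries, on a color scale. MYOD1, DES, CHRNA1 and CDH15 were high in both RH30 groups, and MYOG was at 83.9 TPM in RH30 DMSO and 5.69 TPM in RH30 CB6644. These 5 had means under 1 TPM in A375, T84 and H1048, whereas FGFR4, MEF2C, FOXO1, PAX3 and MYH3 were also found in at least 1 other line.

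MYOG had the largest fall of all genes in RH30 treated with CB6644, MYOD1 fell to about 51.2% of its DMSO mean, and the level of PAX3 and FOXO1 rose. With limma on log2(TPM + 1) and Benjamini-Hochberg adjustment (threshold 0.05), 8 of the 10 genes were lower and 2 were higher, and the CB6644 and DMSO libraries did not overlap for any of the 10. These counts have to be read against a very broad response. Of 12153 genes tested in RH30 77.7% passed the threshold, 27.3% as lower and 50.4% as higher, and 71.5% had groups that did not overlap. The size of the change is thus more informative than the call. Only 1.59% of genes passed the threshold with a fall of 1 or more on the log2 scale, and of the 10 genes MYOG alone did so. MYOD1 joined it after median-of-ratios scaling (2 of 10 genes, against 2.55% of all genes), and MYH3 joined it with a pseudocount of 0.1 TPM (2 of 10, against 2.24%). The median log2 fold change was -0.51 over the 10 genes and 0.13 over all genes tested. Relative to this median, the changes of the 10 genes ran from -3.81 for MYOG to 0.33 for PAX3. Median-of-ratios scaling moved the median to -0.02, and the counts of the gene lists are given with and without it. The list counts under this scaling were added after the data were seen. With scaling 4252 of 12135 genes were higher and 4994 lower. In bulk RNA, fewer cells of a type and less RNA per cell cannot be told apart.

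**Figure D2:**
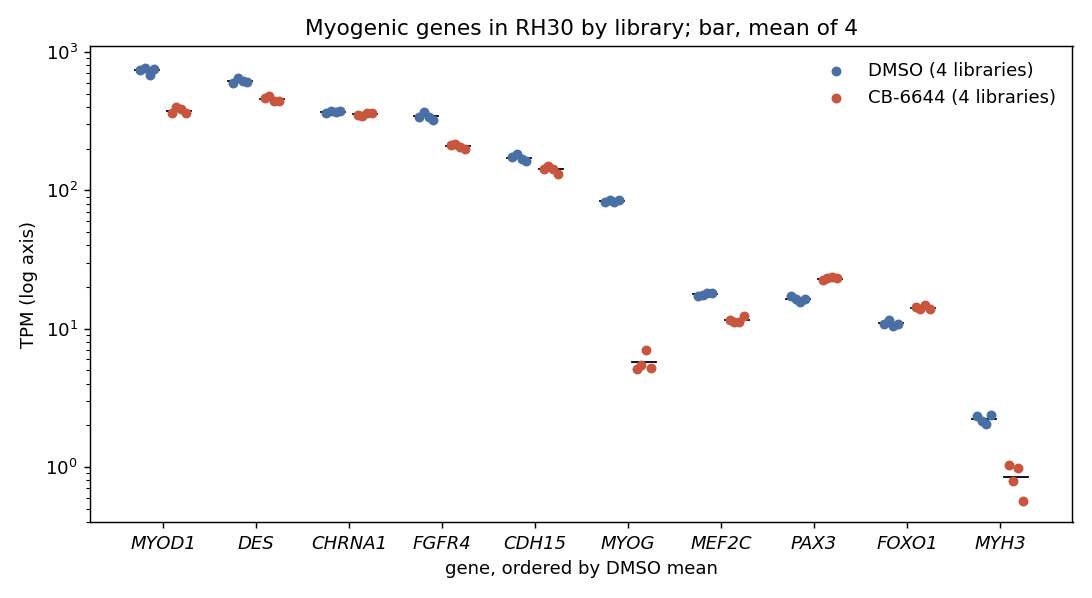
Level of each myogenic gene in the 8 RH30 libraries, in TPM on a log axis, with points for libraries and a bar for the mean of 4. MYOG dropped from 83.9 to 5.69 TPM, whereas the groups of CHRNA1 lay next to each other at 371 and 354 TPM.

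Among the transcription factors, MYOG changed the most. Its gene lies on chromosome 1 of GRCh38 from 203083129 to 203086012, minus strand. MYOG measured 82.7, 85.2, 82.5 and 85.4 TPM in DMSO replicates 1 to 4 and 5.11, 5.43, 7.0 and 5.23 TPM in CB6644 replicates 1 to 4. Every treated library was far below every control, and CB6644 replicate 3 was the highest of the treated ones. The DMSO mean of 83.9 ± 1.54 TPM (SD, n = 4) compared with 5.69 ± 0.885 TPM (SD, n = 4) in CB6644, which left 6.78% of the DMSO level. The log2 fold change was -3.67 (SE 0.072, adjusted p = 1.78e-12), or -3.81 relative to the median of all genes. MYOG ranked 1 of 12153 by size of fall, and the next gene fell by 2.52. It ranked 1 in all 15 settings of the analysis, including without CB6644 replicate 3. MYOG passed from being lower than 2077 genes in DMSO to being lower than 9988 in CB6644.

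MYOD1 (chromosome 11, 17719571 to 17722136, plus strand) measured 740.4, 770.4, 684 and 751 TPM in DMSO and 359, 397, 388 and 365 TPM in CB6644. The groups were separated by a wide margin, with the lowest control well above the highest treated library. Its log2 fold change was -0.96 (SE 0.040, adjusted p = 4.99e-10) and -1.1 relative to the median, and 1.74% of the genes tested fell more. MYOD1 thereby left the top place among the 10 genes, which DES took at 457 TPM, and in CB6644 it overlapped with CHRNA1. Although both factors fell, they did so unequally. The ratio of MYOD1 TPM to MYOG TPM within a library, which does not depend on how libraries are scaled, was 8.77 ± 0.336 (SD, n = 4) in DMSO and 67.1 ± 7.97 (SD, n = 4) in CB6644. This ratio was chosen once the values were known and is given as a description.

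MEF2C (chromosome 5, 88717117 to 88904257, minus strand), a MADS-box factor that partners MYOD1 and MYOG, was lower in every treated library. It measured 17.2, 17.5, 18.1 and 18.1 TPM in DMSO and 11.5, 11.1, 11.2 and 12.2 TPM in CB6644. The log2 fold change was -0.58 (SE 0.045, adjusted p = 1.29e-07), or -0.71 relative to the median, and 6.36% of genes fell more. MEF2A, a close relative, moved the opposite way, from 26.1 to 38.2 TPM.

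PAX3 and FOXO1, the genes joined in the fusion, were the 2 that rose. PAX3 (chromosome 2, 222199887 to 222298998, minus strand) measured 17.3, 16.4, 15.5 and 16.5 TPM in DMSO and 22.4, 23.2, 23.4 and 23.1 TPM in CB6644. All treated libraries were above all controls, and the log2 fold change was 0.46 (SE 0.042, adjusted p = 5.54e-07). FOXO1 (chromosome 13, 40555667 to 40666641, minus strand) measured 10.8, 11.6, 10.5 and 10.8 TPM in DMSO and 14.4, 13.8, 14.7 and 13.8 TPM in CB6644, again with no overlap. Its log2 fold change was 0.35 (SE 0.048, adjusted p = 2.37e-05). Relative to the median of all genes the rises were 0.33 and 0.22, and after scaling the libraries by the median of ratios they were 0.30 and 0.19, still past the threshold. Of the genes tested, 21.2% rose more than PAX3 and 29.7% more than FOXO1, so neither stood at the edge of the distribution.

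**Figure D3:**
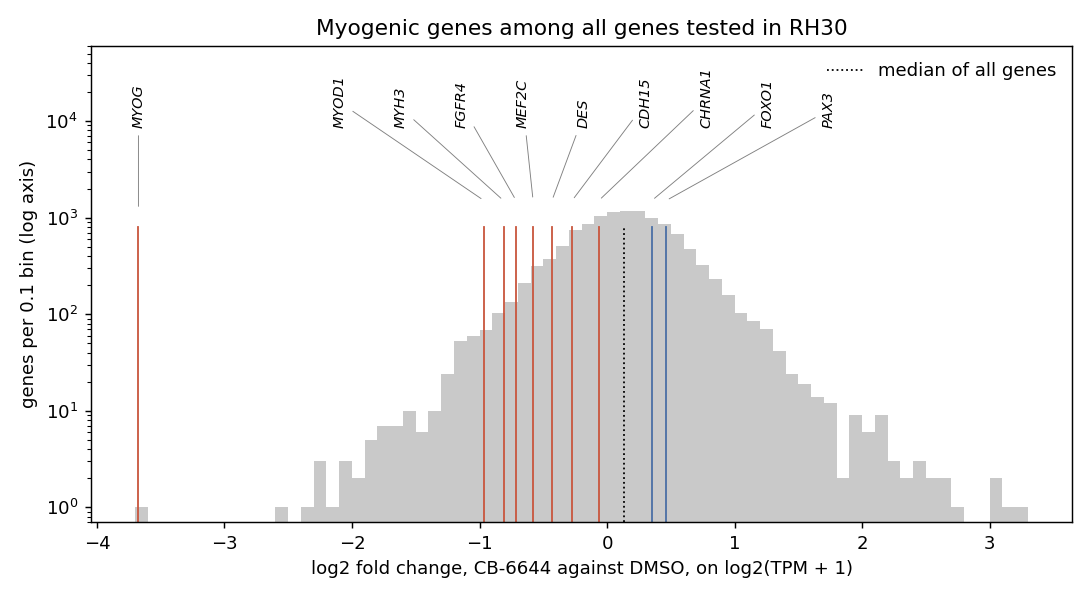
Distribution of log2 fold changes on log2(TPM + 1), CB6644 against DMSO, over the 12153 genes tested in RH30 (gray bars, number of genes per bin on a log axis), with a line for each of the 10 myogenic genes and a dotted line at the median of all genes, 0.13. MYOG lies alone at the left edge at -3.67, and PAX3 and FOXO1 lie to the right of the median.

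Among the structural and surface genes, all 5 were lower, from MYH3 at -0.81 to CHRNA1 at -0.07 on the log2 scale. DES (chromosome 2, 219418377 to 219426735, plus strand) encodes desmin, the intermediate filament protein of muscle. Its level was 592, 650.5, 620.5 and 603 TPM in DMSO and 462, 480.4, 441 and 444 TPM in CB6644, with all treated libraries lower. The log2 fold change was -0.43 (SE 0.035, adjusted p = 1.63e-07), or -0.57 relative to the median. VIM, which encodes the related filament protein vimentin, fell further, from 3662 to 2360.4 TPM (log2 fold change -0.63, adjusted p = 7.69e-11). The ratio of DES to VIM consequently went from 0.168 ± 0.0063 (SD, n = 4) to 0.193 ± 0.0061 (SD, n = 4), with no overlap between groups and no test, since the pair was chosen after its values were seen.

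MYH3 (chromosome 17, 10628526 to 10657309, minus strand), the embryonic myosin heavy chain, was the least expressed of the 10 genes. It measured 2.34, 2.14, 2.05 and 2.37 TPM in DMSO and 1.03, 0.790, 0.984 and 0.572 TPM in CB6644. Treated libraries were all lower, at 38.0% of the DMSO mean. The log2 fold change was -0.81 (SE 0.103, adjusted p = 1.12e-05) with a pseudocount of 1 TPM and -1.33 with 0.1 TPM, and -0.94 relative to the median on the first of these scales. MYH3 belongs to a cluster of similar myosin heavy chain genes, and how reads were divided among them was not tested.

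CHRNA1 (chromosome 2, 174747592 to 174787935, minus strand) encodes the alpha subunit of the acetylcholine receptor of muscle and was the steadiest of the 10. It measured 365, 375.4, 370.3 and 372 TPM in DMSO and 350.3, 345, 360.1 and 361 TPM in CB6644. The groups did not overlap but were separated by only a few TPM, and the treated mean was 95.6% of the control mean. Its log2 fold change was -0.07 (SE 0.023, adjusted p = 0.0194), or -0.20 relative to the median and -0.24 after median-of-ratios scaling. The call was lost without CB6644 replicate 2 (adjusted p = 0.0537) and when all 32 libraries shared 1 estimate of the spread (adjusted p = 0.339).

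CDH15 (chromosome 16, 89171748 to 89195492, plus strand) encodes M-cadherin, an adhesion molecule of myoblasts and satellite cells. It measured 173, 182, 169 and 162 TPM in DMSO and 141, 149, 143 and 132 TPM in CB6644. All treated libraries were lower, and the log2 fold change was -0.27 (SE 0.041, adjusted p = 4.76e-05), or -0.41 relative to the median, with 17.2% of genes falling more. FGFR4 (chromosome 5, 177086905 to 177098144, plus strand), a receptor tyrosine kinase for fibroblast growth factors and a known target of the PAX3-FOXO1 fusion, fell more clearly. It measured 336, 369.6, 341 and 323 TPM in DMSO and 212, 217, 206 and 199 TPM in CB6644, without overlap. The log2 fold change was -0.71 (SE 0.040, adjusted p = 6.10e-09), or -0.85 relative to the median, and 3.87% of genes fell more.

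The wider muscle program did not fall as a block. Of 18 muscle regulators tested outside the 10 genes, 11 were lower, 2 were higher and 5 did not pass the threshold, with a median log2 fold change of -0.18 against 0.13 over all genes. After scaling 15 were lower and 2 higher. Over all genes tested 27.3% were lower and 50.4% higher, the shares against which each list below is read. Those with the largest falls were HEYL, a Notch-responsive repressor (49.3 to 21.4 TPM, log2 fold change -1.17), SNAI2 (-0.67), TCF3, an E protein that pairs with MYOD1 (73.2 to 47.9 TPM, -0.60), and SIX4 (-0.52). The 2 that rose were ID2, an inhibitor that sequesters E proteins (42.0 to 75.3 TPM, 0.83), and MEF2A (0.53). Of 26 contractile and calcium-handling genes tested (MYH3 included), 15 were lower and 6 were higher, with a median of -0.38 (17 and 5 after scaling). MYBPH (2.13 to 0.539 TPM, -1.02, or -1.82 with a pseudocount of 0.1 TPM), TNNI2 (-0.88), MYH3 and KLHL41 (-0.71) had the largest falls of the list. LDB3 (2.26 to 5.45 TPM, 0.99), MYL1, a fast myosin light chain (16.2 to 32.3 TPM, 0.96), ACTN2 (1.71 to 2.54 TPM, 0.39) and NEB (26.8 to 34.2 TPM, 0.34) rose. Of the most abundant genes of the list, TNNT1 (961 to 734 TPM), ACTC1 (921 to 564), TNNT2 (718 to 534) and TNNI1 (414 to 269) fell, and TPM2 (730 to 862) rose.

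The acetylcholine receptor is built from several subunits and clustered at the synapse by MUSK, DOK7 and rapsyn. Of 11 neuromuscular junction genes tested (CHRNA1 included), 8 were lower and 1 was higher, with a median of -0.27 (9 and 1 after scaling). DOK7 dropped from 5.27 ± 0.807 to 0.787 ± 0.0532 TPM (SD, n = 4 each, log2 fold change -1.80, adjusted p = 4.28e-09). CHRNB1, the beta subunit, fell from 154 ± 2.97 to 63.2 ± 2.22 TPM (SD, n = 4 each, -1.27, adjusted p = 5.27e-12). MUSK (-0.87) and the delta subunit CHRND (-0.71) also fell, and COLQ, which anchors acetylcholinesterase, rose from 0.514 to 2.79 TPM (1.33, or 2.27 with a pseudocount of 0.1 TPM). The gamma subunit CHRNG, named after its values were seen, fell from 15.5 to 12.7 TPM (-0.27, adjusted p = 0.00085). The 4 subunit genes tested were thus all lower in the main fit, by unequal amounts. CHRNA1 fell least (-0.07), and its call was lost without CB6644 replicate 2 and with all 32 libraries in 1 fit. The ratio of CHRNA1 to CHRNB1 was 2.41 ± 0.0686 (SD, n = 4) in DMSO and 5.61 ± 0.288 (SD, n = 4) in CB6644, also a pair chosen after the values were seen and not tested.

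Genes of myoblast adhesion and fusion split in both directions. Of 13 tested (CDH15 included), 7 were lower and 5 were higher, with a median of -0.15 (8 and 5 after scaling). MYMX, which encodes the fusion peptide myomixer, fell from 108 ± 6.42 to 32.6 ± 0.840 TPM (SD, n = 4 each, log2 fold change -1.69, adjusted p = 5.64e-12). Its partner MYMK (myomaker) changed by -0.83, NCAM1 by -0.73 and CDON by -0.56, each past the threshold. JAM2 (1.16), NEO1 (0.45), ITGB1 (0.44) and JAM3 (0.43) rose. Among 9 tested genes of the intermediate filament network around DES, 4 were lower and 5 were higher, with a median of 0.09. This share of higher genes was near the 50.4% over all genes, and after scaling 5 were lower and 3 higher, with NES turning from higher (0.09) to lower (-0.08). Besides VIM and DES, PLEC (-0.26) and LMNA (-0.11) fell, whereas SYNM, a partner of desmin (1.03), SYNC (0.53), BAG3 (0.47) and DMD (0.27) rose. The rise of DMD was lost after median-of-ratios scaling (adjusted p = 0.143).

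Genes listed as targets or signature genes of the PAX3-FOXO1 fusion moved both ways. Of 22 tested, 12 were lower and 8 were higher, with a median of -0.19 (14 and 6 after scaling), and the list includes MYOG, MYOD1 and FGFR4. The largest fall besides these was that of the potassium channel gene KCNN3 (-0.88). GREM1, a BMP antagonist, rose from 30.2 ± 1.5 to 98.7 ± 2.77 TPM (SD, n = 4 each, log2 fold change 1.68, adjusted p = 3.78e-12), and HMGA2 (1.2), PRDM12 (1.14) and NOS1 (0.85) rose as well. Of 7 FGF and IGF receptor genes tested, FGFR4 was lower and the other 6 were higher, with a list median of 0.35, beside 50.4% higher and a median of 0.13 over all genes. After scaling 4 of the 7 were higher, as FGFRL1 and IGF2R lost their calls. IGF1R rose from 21.0 to 43.0 TPM (1.00), FGFR3 by 0.84, INSR by 0.66 and FGFR1 by 0.35. In the FOXO and PAX family, 4 of 7 tested genes (3 after scaling) were higher and FOXO6 was lower (16.8 to 5.53 TPM, -1.44). The higher ones besides PAX3 and FOXO1 were PAX6 (0.35) and FOXO4 (0.24, adjusted p = 0.219 after median-of-ratios scaling). Of 13 FOXO target genes tested, 9 were higher and 4 were lower, with a median of 0.21, beside 50.4% higher, 27.3% lower and a median of 0.13 over all genes. After scaling 6 were higher and 4 lower. SESN3 (1.63, or 2.52 with a pseudocount of 0.1 TPM), GADD45A (0.85), INSR and SOD2 (0.65) rose most, and KLF6 (-0.82), CITED2 (-0.74), TXNIP (-0.15) and CAT (-0.10, adjusted p = 0.0502 without DMSO replicate 3) fell.

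Myogenic differentiation normally accompanies exit from the cell cycle, so genes of division were examined beside MYOG. Of 16 cell cycle genes, 12 were lower and 2 were higher, with a median of -0.15 (14 and 1 after scaling). Over all genes tested, 27.3% were lower and 50.4% higher, with a median of 0.13. CCND1 (-0.70), CCNB1 (-0.68), CCNA2 (-0.63) and AURKA (-0.58) fell, and CCNE2 (0.59) and CCNE1 (0.19, adjusted p = 0.563 after median-of-ratios scaling) rose. The other lower genes of the list were CCND2 (-0.47), CCND3 (-0.27), MCM3 (-0.25), MCM5 (-0.16), BUB1 (-0.14), MCM2 (-0.12), TOP2A (-0.09) and PCNA (-0.07). After scaling the last 3 of these were at -0.30, -0.27 and -0.24. MKI67 (0.03) and CDK1 (0.08) did not pass the threshold, though both were lower after scaling (-0.14 and -0.09). Of 7 cell cycle inhibitors tested, 6 were higher (5 after scaling) and none was lower, with a median of 0.62, beside 50.4% higher over all genes. CDKN2B went from 5.02 to 17.1 TPM (1.59), and CDKN1A, a gene that MYOD1 is known to induce, from 104 to 180.1 TPM (0.78). CDKN2D and CDKN2C each rose by 0.62. For the inhibited ATPases themselves, RUVBL1 went from 175 to 146 TPM (-0.26, adjusted p = 1.09e-06) and RUVBL2 from 164 to 157 TPM (-0.06, adjusted p = 0.25, or -0.23 and 0.000701 after median-of-ratios scaling). Among the marker genes of other lineages, GPA33 fell from 5.15 to 0.980 TPM and SOX9 from 14.0 to 7.28, while MITF went from 3.25 to 3.92 TPM, a call lost after scaling (adjusted p = 0.284). KRT8 and KRT18 stayed below 6 TPM in every library and did not pass the threshold (adjusted p = 0.748 and 0.276, with KRT18 at 0.0195 without DMSO replicate 4).

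**Figure D4:**
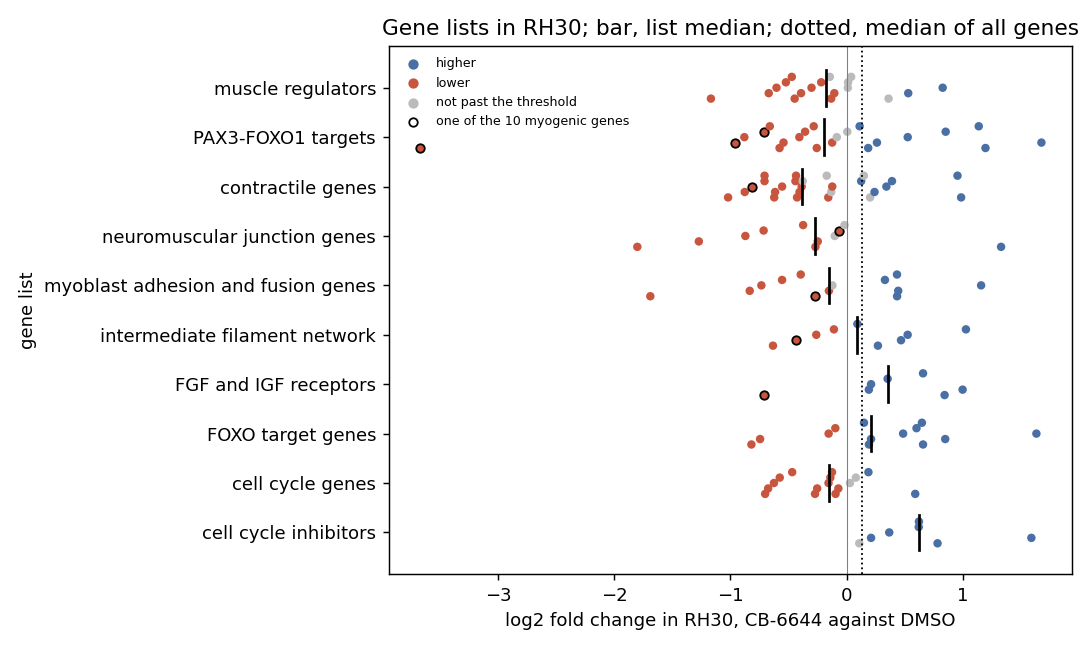
Log2 fold changes in RH30 (CB6644 against DMSO, horizontal axis) of the tested genes of 10 lists (rows), colored by whether they passed adjusted p of 0.05 as higher or lower; black bars are list medians, the dotted line is the median of all genes and outlined points are among the 10 myogenic genes. MYOG lies apart from every other gene drawn, and FGFR4 is the single lower gene among the FGF and IGF receptors.

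T84, A375 and H1048 received the same treatment, which raises the question of how the effect on these genes compared between lines. MYOD1, MYOG, DES, CHRNA1 and CDH15 had means under 1 TPM in all 6 groups of T84, A375 and H1048 and were not tested there. The highest single values were 0.810 TPM for MYOD1, 0.454 for DES, 0.330 for CHRNA1 and 0.279 for CDH15. MYOG in H1048 was at 0.0769 to 0.166 TPM in DMSO and 0.454 to 0.892 TPM in CB6644, higher with no overlap but below the level at which genes were tested. PAX3 was expressed in A375 but at most 0.104 TPM in T84 and H1048.

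The remaining 5 genes were left for comparison, and 71.4% of genes tested in T84, 81.1% in A375 and 77.9% in H1048 passed the threshold in either direction. FOXO1 had opposite signs in RH30 and the other lines. It went from 6.41 ± 0.769 to 4.74 ± 0.330 TPM in T84 (SD, n = 4 each, log2 fold change -0.37, adjusted p = 0.00188), from 2.53 ± 0.194 to 1.88 ± 0.229 TPM in A375 (-0.30, adjusted p = 0.00555) and from 2.71 ± 0.219 to 2.25 ± 0.311 TPM in H1048 (-0.19, adjusted p = 0.0768). The H1048 change passed the threshold after median-of-ratios scaling (adjusted p = 0.00494) and without CB6644 replicate 1 (adjusted p = 0.0316). A test of the difference between the effects found RH30 higher by 0.72 than T84 (SE 0.101, adjusted p = 7.65e-06), by 0.65 than A375 (SE 0.088, adjusted p = 4.35e-06) and by 0.54 than H1048 (SE 0.097, adjusted p = 0.000115). Such differences were common, since 48.3% of genes differed between RH30 and T84, 64.0% between RH30 and A375 and 57.2% between RH30 and H1048.

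PAX3 rose in the melanoma line too. In A375 it measured 10.7, 10.5, 10.0 and 9.44 TPM in DMSO and 16.4, 16.6, 16.3 and 15.3 TPM in CB6644, with no overlap (log2 fold change 0.62, SE 0.050, adjusted p = 4.00e-07). The rise in RH30 was smaller by a difference of -0.16 (SE 0.063, adjusted p = 0.0354). This difference was lost after median-of-ratios scaling (-0.11, adjusted p = 0.146) and without any 1 of CB6644 replicates 1, 2 and 3 or DMSO replicates 3 and 4 of A375, or CB6644 replicate 1 and DMSO replicates 1 and 4 of RH30 (adjusted p up to 0.0813).

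FGFR4 fell in T84 as in RH30, from 83.1 ± 5.70 to 57.0 ± 3.36 TPM (SD, n = 4 each, log2 fold change -0.54, adjusted p = 5.62e-07). In A375 it went from 6.45 ± 0.424 to 8.01 ± 0.824 TPM (0.27, adjusted p = 0.00486) and in H1048 from 9.25 ± 0.726 to 11.4 ± 1.23 TPM (0.27, adjusted p = 0.00777), and both of these rises were lost after median-of-ratios scaling (0.07 in each, adjusted p = 0.350 and 0.407). The effect in RH30 differed by -0.98 from that in A375 (SE 0.081, adjusted p = 7.92e-09) and by -0.98 from that in H1048 (SE 0.088, adjusted p = 4.03e-08). Against T84 the difference of -0.18 lay at the threshold (SE 0.072, adjusted p = 0.0498). It was lost with a pseudocount of 0.1 TPM (adjusted p = 0.0604), after scaling (0.152) and in 10 of 16 fits that left out 1 library, which were T84 CB6644 replicates 2 and 3, T84 DMSO replicates 2 and 4, RH30 CB6644 replicates 1, 3 and 4 and RH30 DMSO replicates 1, 2 and 3 (adjusted p up to 0.119).

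MEF2C fell more in RH30 than elsewhere. It was 6.58 ± 0.926 and 6.02 ± 0.261 TPM in T84 DMSO and CB6644 (SD, n = 4 each, log2 fold change -0.11, adjusted p = 0.300, or -0.27 and 0.00507 after scaling) and 3.06 ± 0.384 and 2.42 ± 0.273 TPM in A375 (-0.24, adjusted p = 0.0278, with overlapping libraries). The A375 call was lost without CB6644 replicate 1 or 3 or DMSO replicate 2 or 3 (adjusted p up to 0.0816). The difference from RH30 was -0.47 for T84 (SE 0.099, adjusted p = 0.000519) and -0.34 for A375 (SE 0.099, adjusted p = 0.00627). In H1048 MEF2C had a mean of 0.920 TPM in DMSO and 1.06 TPM in CB6644 and was not tested. MYH3 rose in A375, from 1.90 ± 0.159 to 3.50 ± 0.183 TPM (SD, n = 4 each, log2 fold change 0.64, adjusted p = 6.21e-06), and was 1.35 and 1.16 TPM in H1048 DMSO and CB6644 (-0.12, adjusted p = 0.312). The effect in RH30 differed by -1.45 from A375 (SE 0.120, adjusted p = 8.74e-09) and by -0.69 from H1048 (SE 0.148, adjusted p = 0.000656). In T84 MYH3 was 0.212 to 0.324 TPM in DMSO and 0.433 to 0.580 TPM in CB6644, higher with no overlap but below the level at which genes were tested.

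**Figure D5:**
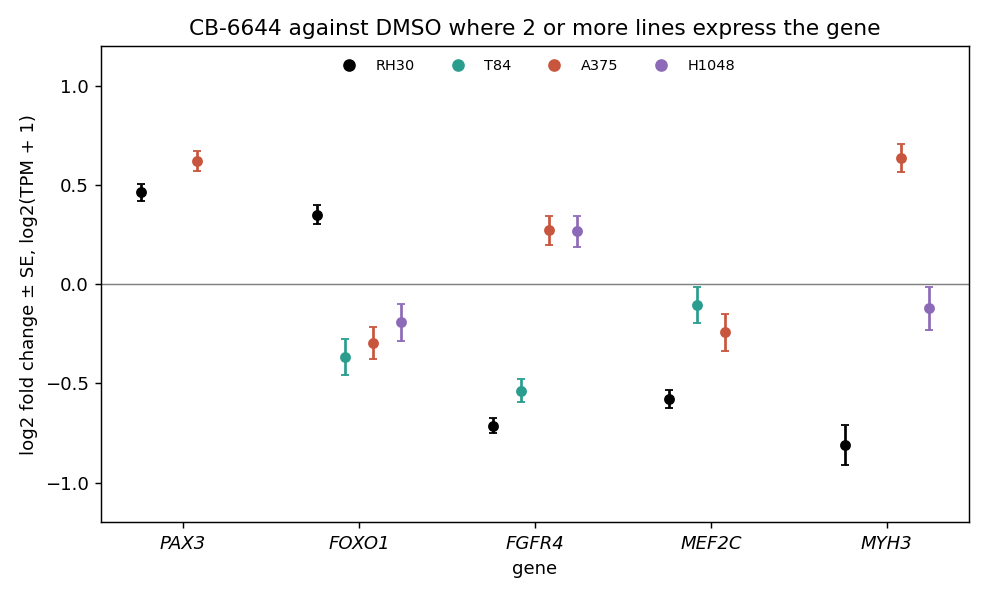
Log2 fold change on log2(TPM + 1), CB6644 against DMSO, of the myogenic genes tested in at least 1 line besides RH30, with bars for the standard error and colors for the line (4 libraries per group). FOXO1 lies above 0 in RH30 and below it in T84, A375 and H1048, and MYH3 lies below 0 in RH30 and above it in A375.

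The genes whose levels were most like those of MYOG and MYOD1 over the 32 libraries were described by Pearson correlation of log2(TPM + 1) among 14250 genes, with the 10 myogenic genes left out. The points share 4 lines, so these values mostly mark genes that RH30 expresses and the other lines do not. Closest to MYOG were GGT5 (r = 0.988), INHBE (0.979), IGLL5 (0.968), DRGX (0.967) and ZNF660 (0.960). All 5 were lower in RH30 after CB6644, with IGLL5 at 92.9 TPM in DMSO and 16.9 TPM in CB6644 and INHBE at 45.3 and 11.9 TPM. RH30 libraries of both treatments entered the correlation, so a fall shared with MYOG is not independent of how these genes were picked. MYOD1 was most like the receptor subunit gene CHRND (r = 0.999), MXRA5 (0.999), COL14A1 (0.999), PITX3 (0.999) and RYR3 (0.999). MYOG and MYOD1 had r = 0.919 with each other.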

How the data were processed

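Per the labels, poly-A RNA was taken after 24 h of treatment, and libraries were made with a TruSeq kit. The authors mapped single-end reads by kallisto pseudo-alignment (hg38) and calculated TPM with tximport. Their methods name the removal of transcripts of low abundance beside differential expression. Its limit, and whether it preceded the deposited values, are not given in the sources used here. The deposited unit is TPM. Each library sums to 1e+06 TPM, so depth is unknown and no counting error can be stated. Between 11840 and 12363 genes reached 1 TPM in each RH30 library. A strand setting is not given in the sources used here, so reads of genes overlapping on opposite strands may not be separated. Of the 19875 names, 18360 are current symbols, the 10 myogenic genes included.

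A pseudocount of 1 was added to the deposited TPM before taking log2. Only genes whose mean over the libraries of a fit was 1 TPM or higher were tested. In each line CB6644 was compared with DMSO by limma (version 3.58.1 in R 4.3.3, empirical Bayes with a trend, two-sided, Benjamini-Hochberg adjustment, threshold 0.05). A fold change on this scale understates the change of low genes. Differences between lines were tested as an interaction over 16 libraries, with the expression minimum applied to each line. On simulated data for the RH30 comparison (12153 genes), 96% of 100 genes with a log2 change of 1 and 57% of 100 with one of 0.25 were recovered, with 4.97% of calls false. No other genes were changed in the simulation, whereas 77.7% of genes passed the threshold in RH30. Its shares of recovered and false calls therefore do not carry over to the real comparison. The 10 genes and the gene lists were chosen with earlier results of these data known. Other genes named are, per list, those past the threshold in RH30, at most the 4 largest rises and 4 largest falls. A list with no call is named by its 2 genes of highest mean TPM, and RUVBL1 and RUVBL2 are always named. The 5 genes most correlated with MYOG and with MYOD1 are also named. EPCAM, CDX2, TYR and POU2F3 were added as defining markers of other lineages. Positions are from GENCODE release 44, and promoter sequences are from RefSeq (GRCh38.p14). The sample labels give no batch that separates the 32 libraries. No pair of RH30 libraries had identical values in more than 0.0329% of tested genes. Alternatives were a pseudocount of 0.1 TPM, no expression minimum, a minimum of 5 TPM, median-of-ratios scaling, the replicate number as a block, all 32 libraries in 1 fit and leaving out each library. The counts of gene lists under scaling and the counts of large falls under other settings were added after the data were seen. CHRNG, NES, FGFRL1, IGF2R, SOX10, PMEL and DCT were named after their values were seen. The same holds for TNNT1, ACTC1, TNNT2, TNNI1, TPM2, MKI67, CDK1, PCNA, TOP2A and MCM2. It also holds for CCND2, CCND3, MCM3, MCM5 and BUB1. The other 7 tables of the series, on other cell lines, were not used here.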

Additional observations from a re-analysis of the deposited data

Results flagged for a closer look

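In 3 of 42 groups of 4 libraries with a mean of at least 1 TPM, 1 library of a myogenic gene lay apart from the others by Dixon's test, and chance alone would flag about 1 in 20 groups. MYOG in RH30 CB6644 replicate 3 was 7.0 TPM, with the nearest library at 5.43 TPM, and the DMSO libraries lay at 82.5 TPM or more. FOXO1 in T84 CB6644 replicate 2 was 4.24 TPM, with the nearest at 4.87 TPM, and in A375 DMSO replicate 3 it was 2.82 TPM, with the nearest at 2.46 TPM.

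All 11 differences examined between the effect in RH30 and that in another line passed adjusted p of 0.05 in the interaction test of limma, as did 48.3% of all genes against T84, 64.0% against A375 and 57.2% against H1048. For FOXO1 the RH30 effect was higher by 0.72 on the log2 scale than in T84, by 0.65 than in A375 and by 0.54 than in H1048. For FGFR4 the differences (RH30 minus the other line) were -0.18 for T84, -0.98 for A375 and -0.98 for H1048. MEF2C differed by -0.47 from T84 and by -0.34 from A375. MYH3 differed by -1.45 from A375 and by -0.69 from H1048. PAX3 differed by -0.16 from A375. The differences of FGFR4 from T84 and of PAX3 from A375 were lost after median-of-ratios scaling, and in 10 and 8 of the 16 fits that left out 1 library.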

How the results depend on the processing

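In RH30, 9 of the 10 myogenic genes kept their direction and their side of the threshold under every alternative that could test them (14 each, 13 for MYH3, which has no value with a mean of at least 5 TPM). CHRNA1 did so in 12 of 14, and the exceptions are given in the report. MYOG ranged from -3.87 to -3.63 and MYOD1 from -1.14 to -0.94. Median-of-ratios scaling, which moves the median of all genes from 0.13 to -0.02, raised the count of lower genes from 3321 to 4994, so that higher genes made up 46.0% of calls against 64.8% without it. In H1048 the same scaling left 0 myogenic genes higher and made 1 lower, and leaving out 1 library gave 0 to 1 lower. Against T84, the count of genes among the 10 with a lower effect in RH30 was 1 in place of 2 with scaling and with a pseudocount of 0.1 TPM, and 1 to 2 over single omissions. In A375 the count of lower genes was likewise 1 to 2. KRT8 reversed to -0.028 with scaling and ranged from -0.090 to 0.36 over single omissions. The replicate numbers marked no stated shared batch or day. Deviations of same-numbered RH30 libraries correlated by -0.0078 to 0.137, and 3 of the 4 treated libraries correlated best with their own number. With the replicate number as a block 9610 genes passed the threshold against 9446 without it, and all 125 results examined with it kept their call. Depth is unknown, and values under 1 TPM, such as those of MYH3, are the least certain.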
